A study of Mus musculus with 6 samples.

Results

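The genes described here encode the conjugating enzymes of phase II drug metabolism in mouse liver, and they were taken by name from 6 expression tables, 1 per mouse. Every row whose name starts as a numbered Gsta, Gstk, Gstm, Gsto, Gstp, Gstt or Gstz gene, as Gstcd, as a numbered Mgst gene, as Ugt1, Ugt2 or Ugt3, or as a numbered Sult gene was kept. This gave 52 of the 14002 listed genes: 25 Gst and Mgst genes, 18 Ugt genes and 9 Sult genes. RNA of whole liver was sequenced from 3 wild type mice and 3 mice whose hepatocytes lack let-7b and let-7c-2, a pair of microRNAs (LKO). All 6 mice were C57BL/6, labelled as 8 weeks old, and had eaten a diet with 60% fat for 8 weeks, so every value belongs to a liver on that diet. Whether the stated age is that at the start of the diet, what drives the knockout and the sex of the mice is not stated in those sources that were used. The libraries selected polyadenylated RNA with strand information, and mature microRNAs were not measured, so loss of the targeted microRNAs could not be read from these values.

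Phase II enzymes attach a polar group to drugs, hormones and metabolic products so that the liver can pass them into bile or blood. Glutathione S-transferases (GSTs, the Gst and Mgst genes) add glutathione to reactive electrophiles, UDP-glycosyltransferases (UGTs) add a sugar, usually glucuronic acid, and sulfotransferases (SULTs) add a sulfate group. In rodent liver many of these genes are induced through the transcription factor NRF2 and the xenobiotic receptors CAR, PXR and AHR, and several differ between males and females.

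The deposited value is a normalized signal per gene, whose unit the tables do not name. Library depth was between 8549483 and 10764825 estimated reads over the listed genes, and the signal that 3 reads are worth ran from 0.331 to 0.447 units. The 10 top genes of LKO replicate 2 took 24.2% of its signal, and those of the remaining 5 libraries took 18.7% to 21.02%. The labelled tissue showed its markers, since all 10 hepatocyte markers had a mean signal of at least 1. They summed to 1.39e+05 to 1.72e+05 units in wild type and 1.47e+05 to 2.11e+05 in LKO. None of them was called. In every LKO liver 5 were higher and 1 was lower than in every wild type liver, where 12.2% and 11.9% of all tested genes separated so. Of the 12 Kupffer cell and macrophage markers, 5 were raised in LKO and none was lowered, against 1.82% and 1.69% of all tested genes. All 12 had a positive log2 fold change, LKO minus wild type, and 10 were higher in every LKO liver than in every wild type liver. The summed level of the 12 was 139 to 157 in wild type and 209.5 to 304 in LKO. None of the 12 was at 0 throughout, and their part in the results below was not tested. In whole liver, fewer cells of a type and less RNA per cell cannot be told apart.

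The contrast of the 2 genotypes addressed which conjugation genes differ in livers whose hepatocytes lack these microRNAs. Of the 52 genes, 46 had a mean signal of at least 1 and were tested, 2 fell short of that mean and 4 (Mgst2, Sult2b1, Sult3a1 and Ugt1a8) were listed at 0 in all 6 libraries. With limma on log2(signal + 1) and Benjamini-Hochberg adjustment over all 11168 tested genes, 7 of the 46 had an adjusted p under 0.05 and are called raised or lowered. Gstp1, Ugt2b1 and Ugt2b37 were raised in LKO, and Mgst3, Gstt2, Gsta2 and Ugt3a1 were lowered. This is 15.2% of the tested conjugation genes, where 3.51% of all tested genes were called, 1.82% raised and 1.69% lowered. The lowered count was 4 or 5 with any 1 library left out, while the raised count was 1 when wild type replicate 2 was left out and 7 when LKO replicate 1 was left out.

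Most tested conjugation genes had lower values in LKO, among them 28 of the 39 that were not called. Log2 fold changes, given throughout as LKO minus wild type on the log2(signal + 1) scale, were negative in 32 of the 46 and positive in 14, with a median of -0.28. Over all tested genes 5611 of 11168 were negative and the median was -0.0017. At an unadjusted p under 0.05, 10 of the 46 were higher in LKO, against 9.58% of all tested genes, and 18 were lower, against 8.86%. The 3 LKO values lay wholly below the 3 wild type values in 19 of the 46 and wholly above them in 7, so 26 genes separated, against 24.2% of all tested genes. Such separation was seen in 11.9% of all tested genes with LKO lower and in 12.2% with LKO higher. By family, 19 of 24 tested GST genes and 11 of 16 tested UGT genes had negative values, and 4 of 6 tested SULT genes had positive ones. The medians were -0.30, -0.11 and 0.34. The plot of fold changes by family shows this order.

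**Figure D1:**
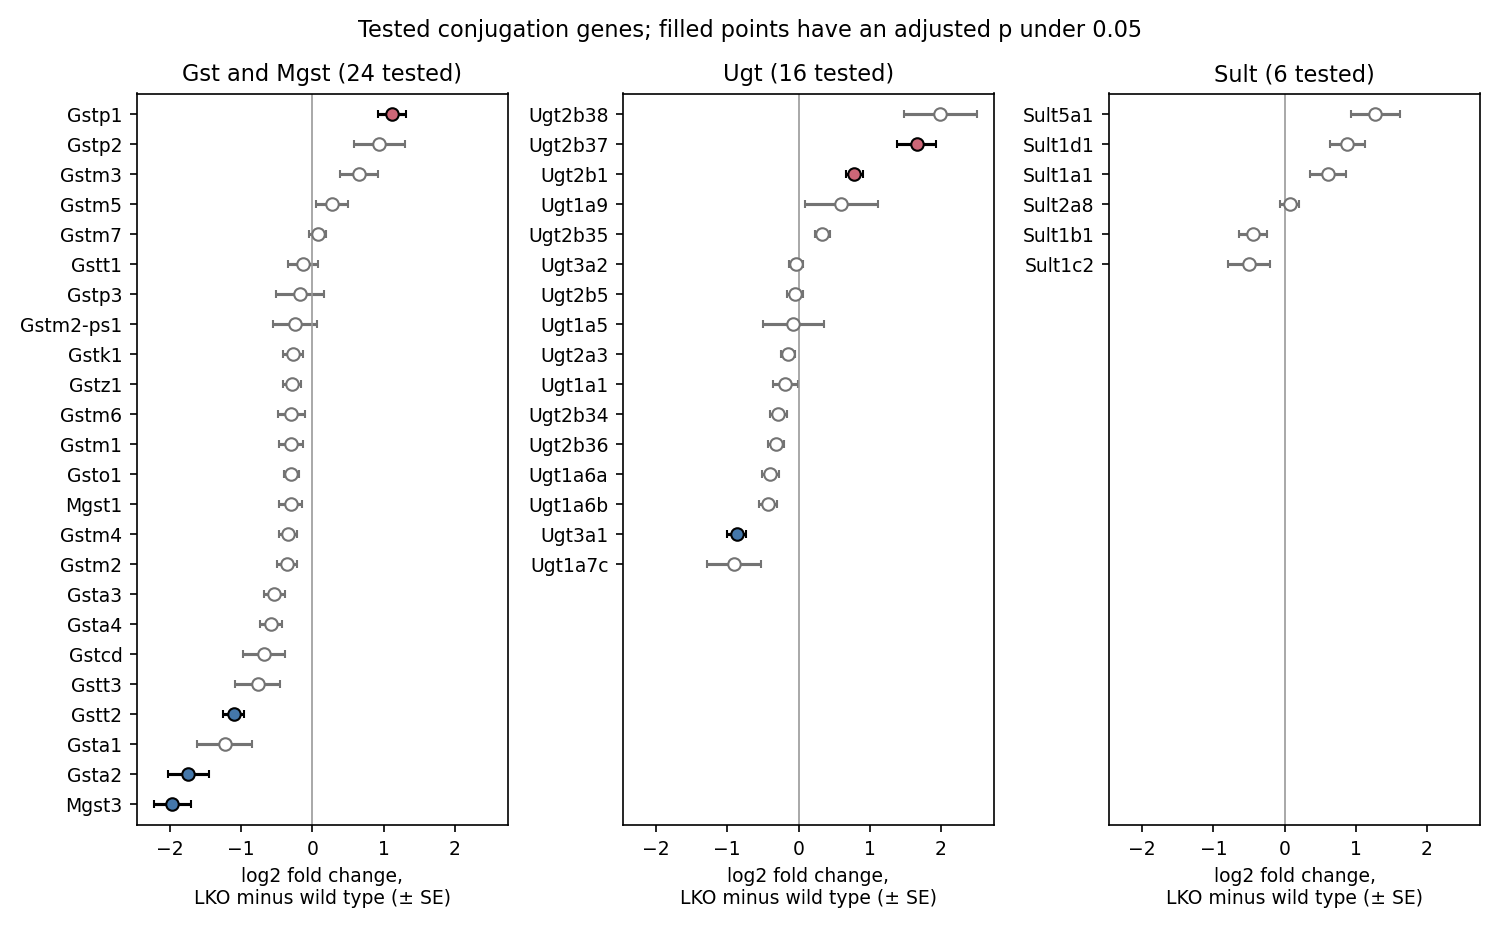
Log2 fold change of each tested conjugation gene (x axis, LKO minus wild type on the log2(signal + 1) scale, bars ± SE from limma), with 1 panel per family and genes sorted by value. Filled points are the 7 called genes, and 19 of the 24 Gst and Mgst genes lie left of 0.

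The signal of each family was also summed per liver. The 25 GST genes together held 9127, 10311 and 10179 units in wild type replicates 1, 2 and 3 and 10402, 8814 and 9635 in the LKO replicates, so the groups overlapped. Gstp1 alone took 17.1%, 10.96% and 13.4% of that sum in wild type and 35.7%, 29.4% and 26.6% in LKO. Without Gstp1, a split chosen after its value was seen, the GST sum was 8519 ± 849 (SD, n = 3) in wild type and 6660 ± 427 in LKO, and the groups did not overlap. The 18 UGT genes summed to 4523 ± 184 in wild type and 4290 ± 138 in LKO, with overlapping groups. The 9 SULT genes summed to 1066 ± 146 in wild type and 1373 ± 127 in LKO, each LKO liver above each wild type liver. The separation was narrow, with 1183 in wild type replicate 2 and 1227 in LKO replicate 1. These sums over chosen genes carry no test.

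**Figure D2:**
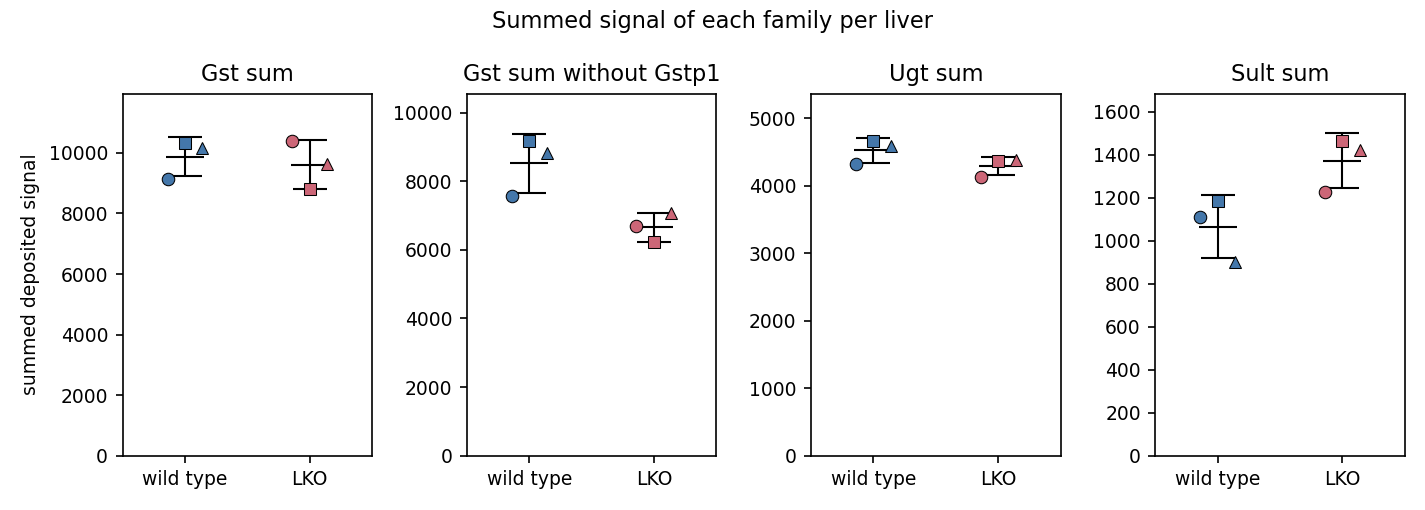
Summed deposited signal per liver (y axis, authors' unit) of the Gst genes, of the Gst genes without Gstp1, of the Ugt genes and of the Sult genes. Circles, squares and triangles are replicates 1, 2 and 3, with the mean and SD of each group. The Gst sums overlap between the groups, while without Gstp1 every LKO liver lies below every wild type liver.

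Levels can be set between genes only per length, so each mean signal was also divided by the length of the gene's longest coding transcript in kilobases. On this length-scaled level the GST genes led in wild type. Mgst1, the membrane-bound GST of the endoplasmic reticulum and outer mitochondrial membrane, had 2780 ± 148 units per kb. Gstp1 followed with 1649 ± 265 and Gsta3 with 1478 ± 195, and these 2 neighbours did not separate liver by liver. Gstm1 had 968 ± 198. The highest UGT genes were Ugt2b5 at 403 ± 25.4 and Ugt1a1 at 353 ± 21.6 units per kb, and the highest SULT gene was Sult2a8 at 285 ± 30.6. In LKO the first and second places were exchanged, with Gstp1 at 3601 ± 796 and Mgst1 at 2263 ± 290. Ugt2b1 stood 15th in wild type, at 124 ± 8.42 units per kb, and 12th in LKO, at 215 ± 23.6. Where close copies share reads, these levels carry the uncertainty of that split.

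**Figure D3:**
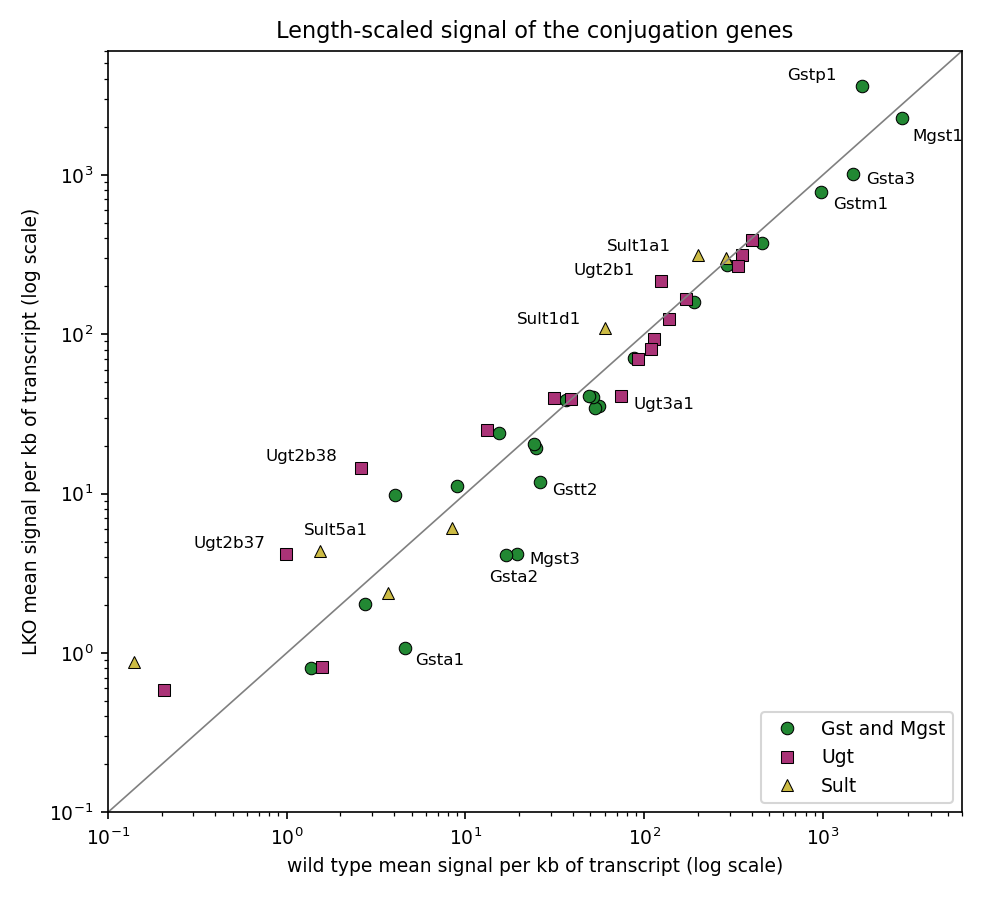
Mean signal per kb of transcript in wild type (x axis) and LKO (y axis), both on log scales, for the 48 conjugation genes above 0 in at least 1 library. The line marks equal levels. Gstp1 is second in wild type and first in LKO, and Mgst3, Gsta2 and Gstt2 lie below the line.

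Gstp1, the pi-class GST that is known as more abundant in male than in female mouse liver, was the most abundant conjugation transcript per length in LKO livers. It lies on chromosome 19 (4035407 to 4037985, minus strand, GRCm38). Its signal was 1565, 1130 and 1365 in wild type replicates 1 to 3 and 3711, 2595 and 2563 in LKO replicates 1 to 3. The lowest LKO liver lay well above the highest wild type liver, and LKO replicate 1 was the highest. LKO minus wild type was 1.12 in log2 (SE 0.19, limma adjusted p 0.0141). The call was lost without wild type replicate 2, at a log2 fold change of 0.99 and an adjusted p of 0.0672.

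Next to it, Gstp2 and Gstp3 were much lower and were not called. Gstp2 had 2.89, 2.56 and 4.25 units in wild type and 12.4, 3.46 and 7.57 in LKO, with overlap, and the log2 difference was 0.94 (SE 0.36; limma adjusted p 0.198). Gstp3 had a mean of 17.1 ± 7.85 in wild type and 14.5 ± 5.56 in LKO. Gstp1 and Gstp2 are near-identical copies: their coding sequences have 630 bases each and differ at 12. Of all 50-base windows of the Gstp1 transcript, 62.3% also occur in Gstp2, so the split of reads between the pair is uncertain. Their summed signal was 1357 ± 218 in wild type and 2964 ± 658 in LKO, so nearly all of it was assigned to Gstp1. The first 60 coding bases, shown because they hold 6 of these differences, are given 5′ to 3′ with the differing bases in capitals (GENCODE M21 transcripts, GRCm38, minus strand, chr19:4037374-4037863 and chr19:4041668-4042165, each including an intron).
Gstp1: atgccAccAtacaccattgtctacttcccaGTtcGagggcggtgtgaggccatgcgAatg
Gstp2: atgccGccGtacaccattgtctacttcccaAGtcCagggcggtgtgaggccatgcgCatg

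Among the alpha-class GSTs, which conjugate lipid peroxidation products and some steroids, Gsta2 was lowered, and Gsta3 and Gsta4 had lower values in every LKO liver than in every wild type liver without being called. Gsta2 lies on chromosome 9 (78331018 to 78355788, minus strand). Its signal was 10.7, 11.6 and 21.9 in wild type and 2.24, 4.32 and 4.19 in LKO. Wild type replicate 3 was the highest, and the LKO livers all stayed far below the lowest wild type value. On the log2 scale LKO minus wild type came to -1.74 (SE 0.29, limma adjusted p 0.0125).

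The other alpha-class genes did not pass the test. Gsta3, the main alpha-class GST of mouse liver, had 1826, 2281 and 2351 units in wild type and 1384, 1519 and 1534 in LKO. LKO minus wild type was -0.53 in log2 (SE 0.15, limma adjusted p 0.0868), and with library size as the only scaling it passed, at -0.60 and an adjusted p of 0.0496. Gsta4, whose enzyme prefers the lipid peroxidation product 4-hydroxynonenal, had 51.7 ± 11.04 in wild type and 33.8 ± 2.23 in LKO, or -0.58 in log2 with an SE of 0.15 and a limma adjusted p of 0.0735. Gsta1 had 1.31, 5.45 and 5.24 in wild type and 1.19, 0.595 and 1.04 in LKO. Its LKO mean of 0.942 lay under the filter, so it was tested only through its wild type level. On the log2 scale LKO minus wild type came to -1.23 (SE 0.39, limma adjusted p 0.122), and it was called only without wild type replicate 1, at -1.72 and an adjusted p of 0.0163.

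Gsta1 and Gsta2 are close copies on opposite strands, and 44.8% of the 50-base windows of the Gsta2 transcript also occur in Gsta1. Of the Gsta1 windows 10.3% are found in no other gene, and 82.9% also occur in the predicted gene Gm3776, which was not analysed here. The summed signal of Gsta1 and Gsta2 was 18.7 ± 7.71 in wild type and 4.53 ± 0.963 in LKO. The coding stretch shown was chosen for holding the most differing bases, so it is no measure of how far apart the copies are. Of its 60 bases 5 differ, in capitals (coding bases 449 to 508, GENCODE M21, GRCm38, chr9:78241561-78241620 on the plus strand and chr9:78332125-78332184 on the minus strand).
Gsta1: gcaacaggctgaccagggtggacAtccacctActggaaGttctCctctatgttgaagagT
Gsta2: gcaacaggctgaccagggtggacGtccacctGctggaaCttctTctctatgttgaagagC

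The theta-class gene Gstt2 was lowered, while its neighbours on chromosome 10 were not called. Gstt2 (75831114 to 75837424, minus strand) had 57.9, 70.3 and 48.3 units in wild type and 27.6, 25.3 and 26.6 in LKO. The LKO livers were tightly grouped, all far below the lowest wild type liver, and the log2 difference was -1.11 with an SE of 0.14 and a limma adjusted p of 0.0045. Gstt3 had 92.1, 117 and 105 in wild type and 36.1, 57.0 and 108 in LKO, where replicate 3 reached the wild type range. The log2 difference was -0.77 with an SE of 0.31 (limma adjusted p 0.224), and it was called without LKO replicate 3. Gstt1, the most abundant of the 3 by signal, had 321 ± 50.1 and 300 ± 97.9, or -0.13 in log2 with an SE of 0.21 and a limma adjusted p of 0.786. Its sign turned, to 0.023, without LKO replicate 1.

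Of the membrane-bound GSTs, Mgst3 was lowered and Mgst1 was not called. Mgst3, whose enzyme has glutathione transferase and peroxidase activity on lipids, lies on chromosome 1 (167371966 to 167393841, minus strand). Its signal was 13.7, 25.2 and 24.9 in wild type and 3.30, 4.61 and 5.90 in LKO. Wild type replicate 1 was the lowest of its group and still well above the highest LKO liver. LKO minus wild type was -1.97 in log2 (SE 0.26, limma adjusted p 0.0045), the most negative of the 46. Mgst1 had 3044, 3349 and 3338 in wild type and 2938, 2273 and 2712 in LKO. These groups did not overlap either, and the log2 difference was -0.30 with an SE of 0.16 and a limma adjusted p of 0.345.

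**Figure D4:**
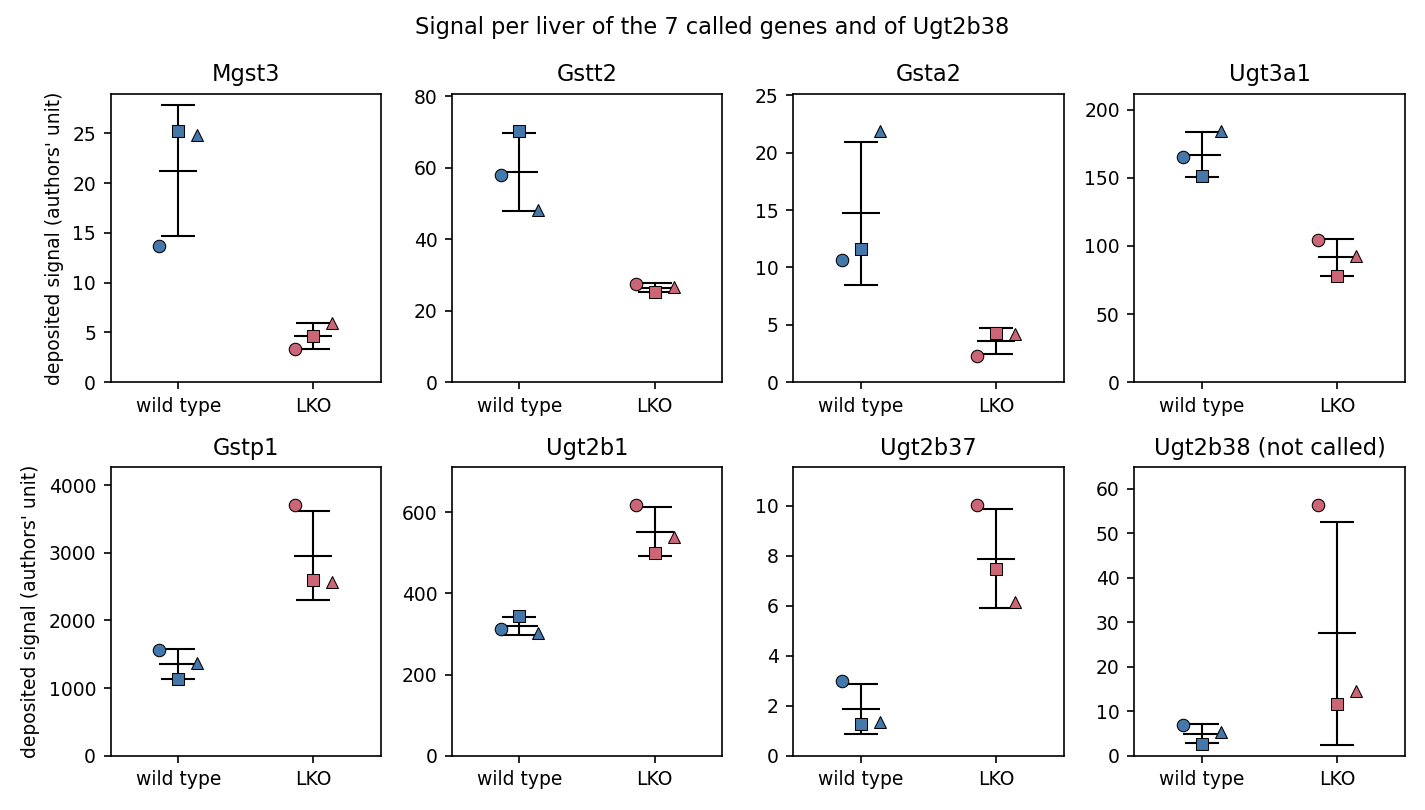
Deposited signal (y axis, authors' unit, from 0) in each liver for the 7 called genes and for Ugt2b38, which was not called. Circles, squares and triangles are replicates 1, 2 and 3, with the mean and SD of each group. In all 8 panels the groups do not overlap, and in the panel of Ugt2b38 LKO replicate 1 lies far above the other LKO livers.

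No mu-class gene was called by limma or limma-voom. At an unadjusted p under 0.05, 1 was higher and 2 were lower in LKO, against 9.58% and 8.86% of all tested genes. The 8 Gstm genes, a chromosome 3 cluster with a processed pseudogene on chromosome 5, had log2 fold changes from -0.36 to 0.65 with a median of -0.27. Gstm1, the most abundant of them, had 985, 1493 and 1266 units in wild type and 876, 1060 and 1081 in LKO, with overlapping groups, and the log2 difference was -0.30 (SE 0.17; limma adjusted p 0.393). Gstm2 and Gstm4 were lower in every LKO liver, with log2 fold changes of -0.36 and -0.34, and Gstm3 had the value at the top of the range. The pseudogene Gstm2-ps1 had 1.79 ± 0.895 in wild type and 1.33 ± 0.584 in LKO, and 35.4% of its 50-base windows also occur in Gstm1.

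The single-gene classes had lower means in LKO and were not called. Gstz1, which also acts as maleylacetoacetate isomerase in tyrosine breakdown, had 757 ± 85.9 in wild type and 621 ± 49.2 in LKO (log2 difference -0.28, SE 0.13). Gsto1, an omega-class enzyme with thioltransferase activity, had 104 ± 8.23 and 83.9 ± 2.41, a log2 fold change of -0.30 (SE 0.11). Both were lower in each LKO liver than in each wild type liver. Gstk1, the kappa-class enzyme of mitochondria and peroxisomes, had 177 ± 16.0 and 147 ± 26.0, with overlap. Gstcd, which carries a GST C-terminal domain, had 4.78 ± 0.787 and 2.81 ± 1.64, also with overlap.

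Within the UGT family, 2 of the 8 Ugt2 genes were raised and none was lowered, against 1.82% and 1.69% of all tested genes. The 8 listed Ugt2 genes and 3 Sult1 genes span 702 kb of chromosome 5 (86889767 to 87591594, GRCm38). Ugt2 enzymes glucuronidate steroids, bile acids and drugs. Of the 8, 4 had higher values in every LKO liver (Ugt2b1, Ugt2b35, Ugt2b37 and Ugt2b38) and 3 had lower values in every LKO liver (Ugt2b34, Ugt2b36 and Ugt2a3). Over all tested genes, 12.2% separated with LKO higher and 11.9% with LKO lower. The summed signal of the 8 genes was 2590 ± 39.9 in wild type and 2617 ± 99.2 in LKO. Genes with higher and lower values lie interspersed along the cluster, as the plot of fold change against position shows.

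Ugt2b1 (86916638 to 86926530, minus strand) was the raised UGT gene with the highest signal. It had 312, 344 and 302 units in wild type and 619, 500 and 539 in LKO. Both groups were narrow and far apart, and the log2 difference was 0.79 with an SE of 0.12 and a limma adjusted p of 0.0082. It made up 7.06% ± 0.418 of the UGT sum in wild type and 12.9% ± 1.838 in LKO. All of its 50-base windows are its own. The call held in each of the 13 alternative fits, with log2 fold changes of 0.70 to 0.85.

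Ugt2b37 (87240493 to 87254804, minus strand) was raised from a low level. It had 3.01, 1.27 and 1.33 units in wild type and 10.05, 7.47 and 6.14 in LKO. The lowest LKO liver lay well above the highest wild type value, and the log2 difference was 1.66 (SE 0.27; limma adjusted p 0.0121). The call was lost without wild type replicate 2, at 1.51 and an adjusted p of 0.0556. Ugt2b38 (87409942 to 87424203) had 6.91, 2.56 and 5.35 in wild type and 56.4, 11.7 and 14.5 in LKO. The groups did not overlap, but LKO replicate 1 was far above the other LKO livers. On the log2 scale LKO minus wild type came to 1.99 (SE 0.51, limma adjusted p 0.0694), and without that library it was 1.32 with an adjusted p of 0.049.

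Ugt2b5, the copy closest to Ugt2b38, had 749 ± 47.1 units in wild type and 723 ± 27.1 in LKO, and the log2 difference was -0.05 (SE 0.11; limma adjusted p 0.866). The coding sequences of Ugt2b38 and Ugt2b5 have 1590 bases each and are 97.0% identical, and those of Ugt2b37 and Ugt2b5 are 94.7% identical. Because Ugt2b5 has by far the highest signal of these 3 genes, a small shift of shared reads could weigh on the 2 low ones, and this was not tested. A coding stretch of 60 bases is shown that sets Ugt2b37 apart, with the differing bases in capitals (coding bases 480 to 539, GENCODE M21, GRCm38, minus strand, chr5:87139768-87139827, chr5:87254232-87254291 and chr5:87423633-87423692). In this stretch Ugt2b37 differs from both other copies at 12 bases, and Ugt2b5 and Ugt2b38 have the same letters.
Ugt2b5: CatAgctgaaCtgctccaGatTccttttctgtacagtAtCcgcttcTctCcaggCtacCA
Ugt2b37: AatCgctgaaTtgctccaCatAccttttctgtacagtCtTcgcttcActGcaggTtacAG
Ugt2b38: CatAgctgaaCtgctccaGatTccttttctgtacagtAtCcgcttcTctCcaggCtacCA

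The other Ugt2 genes were not called. Ugt2b35 had 110, 100.4 and 105 units in wild type and 122, 139 and 138 in LKO, or 0.34 in log2 with an SE of 0.10 and a limma adjusted p of 0.123. Ugt2b36 had 644, 663 and 585 in wild type and 472, 547 and 500.1 in LKO, and the log2 difference was -0.32 (SE 0.11; limma adjusted p 0.177). Ugt2b34 and Ugt2a3 had log2 fold changes of -0.28 and -0.14.

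**Figure D5:**
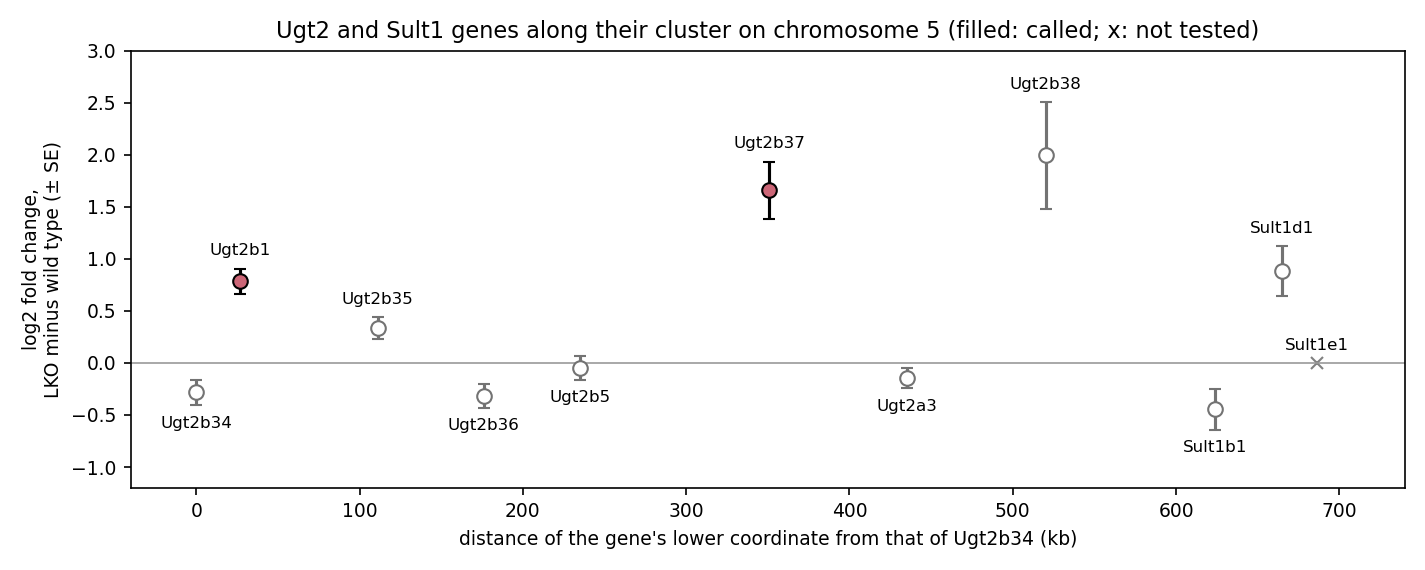
Log2 fold change (y axis, LKO minus wild type, bars ± SE) of the 8 Ugt2 and 3 Sult1 genes of the chromosome 5 cluster against distance in kb from Ugt2b34 (x axis). Filled points are called, and the cross on the zero line marks only the position of Sult1e1, which was not tested. Ugt2b1, Ugt2b37 and Ugt2b38 lie above 0, with genes at or below 0 between them.

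The Ugt1 locus, where alternative first exons are joined to shared downstream exons, held no gene called by limma or limma-voom. At an unadjusted p under 0.05, 3 genes were lower and 0 were higher, against 8.86% and 9.58% of all tested genes. The 6 tested of 8 listed Ugt1a genes had log2 fold changes from -0.91 to 0.60, and 5 of the 6 were negative. Ugt1a1, the bilirubin-conjugating enzyme, had 730, 818 and 808 units in wild type and 523, 847 and 738 in LKO. LKO replicate 1 was the lowest of all 6 livers, and the log2 difference was -0.19 with an SE of 0.17 (limma adjusted p 0.61). Without that library it was 0.012. Ugt1a6a and Ugt1a6b, which conjugate simple phenols, were lower in each LKO liver than in each wild type liver. Their log2 fold changes were -0.40 (SE 0.12, adjusted p 0.118) and -0.42 (SE 0.13, adjusted p 0.105), and their coding sequences differ at 26 of 1593 bases. Ugt1a9 was high in 1 liver, at 110 units in LKO replicate 2 against 18.1 to 38.5 in the other 5. Between 0% and 41.8% of the 50-base windows of the Ugt1a transcripts are found in no other gene, so reads of the shared exons were split by estimation. The 0% is that of Ugt1a6a, and Ugt1a6b has 19.3%, so the values of this pair depend on that split.

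Of the Ugt3 genes on chromosome 15, Ugt3a1 was lowered and Ugt3a2 was not called. In humans these enzymes use sugars other than glucuronic acid, with N-acetylglucosamine for UGT3A1. Ugt3a1 (9276888 to 9315032, plus strand) had 165, 151 and 184 units in wild type and 104, 77.7 and 92.7 in LKO. The groups were well apart, and the log2 difference was -0.87 (SE 0.13; limma adjusted p 0.0084). Ugt3a2 (9335550 to 9370955) had 393, 392 and 405 in wild type and 382, 390.3 and 389 in LKO, narrowly lower in each LKO liver, and the log2 difference was -0.04 (SE 0.10, limma adjusted p 0.891). The coding sequences of the pair are 93.2% identical, and 90.6% of the 50-base windows of Ugt3a1 are its own. The difference between the 2 fold changes was not tested.

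No SULT gene was called with limma, while 3 of the 6 tested had an unadjusted p under 0.05 with higher values in LKO and 1 with lower values. Over all tested genes these shares were 9.58% and 8.86%. Limma-voom also called no SULT gene. Sult2a8, a bile acid sulfotransferase of mouse liver and the most abundant SULT gene per length in wild type, had 660, 636 and 536 units in wild type and 717, 596 and 610.5 in LKO. The groups overlapped, and the log2 difference was 0.07 (SE 0.13; limma adjusted p 0.823). In LKO, Sult1a1 had 313 ± 106 units per kb and Sult2a8 299 ± 30.9.

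Sult1a1, which sulfates phenols, had 230, 355 and 241 units in wild type and 278, 567 and 440 in LKO, with overlap. The log2 difference was 0.61 with an SE of 0.25 (limma adjusted p 0.235), or 0.89 with an adjusted p of 0.0394 without LKO replicate 1. Sult1d1, which sulfates catecholamines, had 188, 151 and 97.6 in wild type and 199, 268 and 328 in LKO, a narrow separation. On the log2 scale LKO minus wild type came to 0.88 (SE 0.24, limma adjusted p 0.0846), or 1.07 with an adjusted p of 0.0368 without LKO replicate 1. Sult5a1 had 3.91, 5.55 and 8.18 in wild type and 9.23, 13.8 and 26.4 in LKO, or 1.27 in log2 with an SE of 0.35 and a limma adjusted p of 0.0826. It was called without LKO replicate 1, at 1.60 and an adjusted p of 0.0235.

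The remaining SULT genes were low. Sult1b1, which acts on thyroid hormones, had 22.01 ± 5.01 units in wild type and 15.8 ± 3.22 in LKO, and Sult1c2 had 6.81 ± 2.82 and 4.41 ± 1.42. Sult1e1, the estrogen sulfotransferase, was under the filter with about 4 estimated reads over the 3 wild type libraries and 26 over the 3 LKO libraries. Its signal was 0.521, 0 and 0 in wild type and 1.32, 0.595 and 1.34 in LKO. Without the filter its adjusted p was 0.103 in limma.

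Promoters of the conjugation genes, called or not, were compared with those of all genes in the RefSeq promoter table (GRCm38.p6, 250 bases before to 50 bases after each start), in which 47 of the 52 genes have an entry. The antioxidant response element core TGACNNNGC, searched on both strands, occurred in 4 of 59 promoters of conjugation genes (6.78%) and in 12.4% of all 32851 promoters. The 4 were those of Gsta3, Gstm5, Gstm7 and Mgst1, none of which was called. Only this spelling of the core was searched. The promoter of Gstp1, a raised gene, holds tgagtcagc, with tgag in place of TGAC. How often such variant spellings occur was not tested. The AHR element core GCGTG, likewise on both strands, occurred in 25.4% of the conjugation gene promoters and in 32.4% of all. A perfect direct repeat 1, an element that nuclear receptors bind, occurred in none of the 59 and in 0.0396% of all. These matches describe letters in the window and say nothing of factor binding.

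Of the called genes with an entry, Gstp1, Gsta2 and Mgst3 hold GCGTG, each shortly before the start site, at 13, 7 and 22 bases upstream. They are shown because the same letters stand at a similar place in a raised gene and in 2 lowered ones (5′ to 3′ on the gene's strand, minus for all 3, GCGTG in capitals, chr19:4037863-4038162, chr9:78347096-78347395 and chr1:167393792-167394091).
Gstp1: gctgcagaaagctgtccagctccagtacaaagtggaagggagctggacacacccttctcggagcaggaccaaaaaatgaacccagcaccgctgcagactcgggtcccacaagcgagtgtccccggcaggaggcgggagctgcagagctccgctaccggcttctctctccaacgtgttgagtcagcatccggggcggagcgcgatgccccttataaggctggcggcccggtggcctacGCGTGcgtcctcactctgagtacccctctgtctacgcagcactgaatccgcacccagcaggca
Gsta2: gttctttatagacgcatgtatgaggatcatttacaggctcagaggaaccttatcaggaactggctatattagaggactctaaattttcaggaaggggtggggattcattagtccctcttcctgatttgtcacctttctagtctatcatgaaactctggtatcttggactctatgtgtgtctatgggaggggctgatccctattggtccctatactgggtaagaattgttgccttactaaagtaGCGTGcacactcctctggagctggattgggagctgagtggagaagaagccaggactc
Mgst3: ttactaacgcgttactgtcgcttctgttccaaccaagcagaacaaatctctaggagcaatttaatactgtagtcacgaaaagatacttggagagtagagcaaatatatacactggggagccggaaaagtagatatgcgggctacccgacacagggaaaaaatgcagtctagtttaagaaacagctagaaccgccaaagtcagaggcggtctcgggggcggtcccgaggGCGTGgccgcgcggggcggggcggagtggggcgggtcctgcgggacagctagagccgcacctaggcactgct

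The genes around the conjugation step were described through 8 lists that hold 117 genes of the tables, 111 of them tested. In limma 5 were raised and 4 lowered, where 3.51% of all tested genes were called. Of the supply genes of the 3 cosubstrates, few were called. None of 14 tested glutathione genes was called by limma or limma-voom, and their median was -0.28. At an unadjusted p under 0.05, 5 were lower and 0 were higher, against 8.86% and 9.58% of all tested genes. Slc25a39, the mitochondrial glutathione importer, and Glo1, the glyoxalase that uses glutathione, had log2 fold changes of 0.11 and -0.60. Of 13 UDP-glucuronic acid genes, Gulo was raised, from 446 ± 54.7 to 809 ± 55.8 (log2 fold change 0.86, SE 0.13, adjusted p 0.0075). Gulo encodes the last enzyme of vitamin C synthesis, which draws on glucuronic acid. None of 13 sulfate genes was called by either tool. At an unadjusted p under 0.05, 2 were higher and 1 was lower, against 9.58% and 8.86% of all tested genes. Slc26a1, a sulfate transporter, had a log2 fold change of 0.46 and Papss2, which makes the sulfate donor, one of 0.36.

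The lists of other phase II enzymes and of transporters gave more calls. Of 16 tested genes listed as other phase II enzymes, Nnmt, the nicotinamide methyltransferase, was raised (log2 fold change 0.82, SE 0.17, limma adjusted p 0.0329). That call was lost in 5 of the 13 alternatives (library size alone, and leaving out LKO replicate 2 or 3 or wild type replicate 2 or 3), where adjusted p reached 0.121. Nqo1, a quinone reductase, and Ephx1, the microsomal epoxide hydrolase, were lowered, with log2 fold changes of -1.27 (SE 0.23) and -0.82 (SE 0.16). Both are in this list though they are not conjugating enzymes. Nqo1 was not called when LKO replicate 2 or wild type replicate 2 or 3 was left out, and Ephx1 in these fits and when LKO replicate 3 was left out, with adjusted p up to 0.0845 and 0.0672. Of 14 tested transporters, Slc22a7 was raised from 41.3 ± 7.55 to 185 ± 103 and Slco1a1 from 255 ± 27.3 to 402 ± 32.8, both uptake carriers. Abcc3, which exports glucuronides to blood, was lowered from 368 ± 66.9 to 97.2 ± 52.9 (log2 fold change -2.07, SE 0.37, adjusted p 0.0177). Slco1a1 lost its call when LKO replicate 2 or wild type replicate 2 or 3 was left out, and Abcc3 without wild type replicate 2 or 3, both with adjusted p up to 0.0794.

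The transcripts of the regulators themselves did not pass the test. None of 18 tested regulators was called in limma or limma-voom, and their median was 0.0091. At an unadjusted p under 0.05, 1 was higher and 5 were lower, against 9.58% and 8.86% of all tested genes. Of the 18 log2 fold changes 10 were positive. In every LKO liver 5 regulators were lower and 1 was higher than in every wild type liver. Over all tested genes 11.9% and 12.2% separated so. The 5 include Nr1i3 (CAR), Nr1i2 (PXR) and Nfe2l2 (NRF2), with log2 fold changes of -0.79, -0.42 and -0.35. The higher one was Bach1, at 0.45. Ahr overlapped between the groups, at 0.011. The 2 with the highest signal, Pgrmc1 and Por, had log2 fold changes of -0.40 and 0.49. Of 17 tested NRF2 targets outside the 3 families, Nqo1 and Ephx1 were lowered and Osgin1 was raised, from 14.7 ± 2.24 to 68.9 ± 34.6. Osgin1 was not called when LKO replicate 2 or 3 or wild type replicate 2 was left out, with adjusted p up to 0.0757. Of 13 tested CAR, PXR and AHR targets, Cyp3a11, Abcc3 and Nqo1 were lowered and none was raised, where 1.69% and 1.82% of all tested genes were. Fold changes were negative in 8 of the 13 and positive in 5. At an unadjusted p under 0.05, 2 were higher and 5 were lower. Likewise 5 targets were lower in every LKO liver. Cyp1a2 and Aldh1b1 were higher in every LKO liver, with log2 fold changes of 0.49 and 0.55. Cyp3a11, Gulo and Slc22a7 kept their calls in all 13 alternatives. With a library left out, the lowered count over all 8 lists ran from 1 without wild type replicate 2 or 3 to 12 without LKO replicate 1.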

How the data were processed

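RNA-seq of 3 wild type and 3 LKO livers was analysed from 1 deposited table per mouse. The authors deposited 1 expression signal per gene, not per length, whose unit the file headers do not name. Per the submitters' processing notes, the tools were RSEM 1.2.22, STAR 2.5.1, Trimmomatic 0.36, edgeR, Picard 1.84 and bcl2fastq 2.17, with build mm10. No source used here states their roles, the annotation or the gene filter. One read was worth 0.110 to 0.149 units depending on the library, values fell on hundredths of that step, and 82.0% to 83.1% of positive values were whole reads within 0.005 of a read. The values were therefore treated as a normalized signal and not as whole counts. For genes with a mean of at least 1, log2(signal + 1) went into limma 3.58.1 under R 4.3.3 (moderated, mean-variance trend, two-sided, Benjamini-Hochberg over all tested genes, no block). The design had foreseen a count model only if the values were counts. The fit was tested on simulated data. Estimated reads are signal divided by step, and floors from reads cover counting error only. Any 2 libraries differed by more than counting noise (chi-square per gene of at least 16.96). The p-values measure the spread between these 6 samples.

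Of the gene identifiers, 13977 matched GENCODE M21 (GRCm38), which gave coordinates and transcripts, with all 52 conjugation genes among them. Promoters came from RefSeq (GRCm38.p6). Named genes were every called gene, the gene of highest mean signal in each subfamily, up to 8 further genes without overlap between the groups by smallest p, and called or most abundant genes of each list. Genes named beyond that, among them Gstp2, Gstp3, Gstm2, Gstm3, Gstm4, Gstm2-ps1, Gstt3, Ugt1a9, Ugt2b34, Ugt2a3, Sult1b1, Sult1c2 and Sult1e1, were chosen after their values were seen. The list genes Nr1i3, Nr1i2, Nfe2l2, Ahr, Bach1, Cyp1a2 and Aldh1b1 also lie outside these rules. The members and lists were chosen with earlier results of these data known.

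Alternatives were library size alone, median-of-ratios factors, no filter, a filter at a mean of 5, a pseudocount of 0.1, limma-voom on estimated counts, a replicate block and each library left out.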

Additional observations from a re-analysis of the deposited data

How the results depend on the processing

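The counts of 3 raised and 4 lowered conjugation genes kept within 1.5 times under both other scalings, no filter, the stricter filter, the pseudocount of 0.1 and limma-voom, except that the stricter filter at a mean of 5 left Ugt2b37 untested and 1 raised UGT gene. Deviations of same-numbered livers correlated only weakly, at 0.046, 0.032 and 0.054, and the main fit used no block. In each case this was the highest value for that liver, and whether same-numbered livers were handled together was not tested. With the replicate block, 5 conjugation genes were raised, Ugt2b38 and Sult5a1 in addition, 1 of them a SULT gene, and 9 genes of the 8 lists were lowered. With 1 library left out, 1 to 7 conjugation genes were raised and 4 to 5 lowered. By family, 0 to 1 GST, 1 to 3 UGT and 0 to 3 SULT genes were raised. Over the lists 2 to 5 were raised and 1 to 12 lowered, and over all genes 76 to 277 were raised and 79 to 263 lowered. In the same fits the log2 fold change ran from -0.34 to 0.012 for Ugt1a1, from -0.020 to 0.13 for Sult2a8 and from -0.38 to 0.023 for Gstt1, so their signs turned, and none of these was called. The cause of these shifts was not tested. Of the 7 called genes, Mgst3, Gstt2, Gsta2, Ugt3a1 and Ugt2b1 kept their call in all 13 alternatives, and Gstp1 and Ugt2b37 lost it without wild type replicate 2. With library size alone the ratio of summed signal, LKO over wild type, went from 0.974 to 0.934 for GST, from 0.948 to 0.905 for UGT and from 1.29 to 1.23 for SULT genes. Depth limited Sult1e1 and Ugt1a10, which had under 30 estimated reads in either group and were not tested.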
